A study of Mus musculus with 8 samples.

Results

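Peritoneal macrophages that had first received the compound C498 were compared with and without LPS, to find which genes LPS still moved when the compound was present. The comparison was C498+LPS vs C498, with 2 samples in each group and thus 4 of the 8 samples of the series, and it was read over the 12189 genes, of 55801 in the table, whose mean was at least 1 TPM over all 8 samples. TPM divides the reads of a gene by its length and scales every sample to the same total. The cells were flushed from the abdominal cavity of male C57BL/6 mice aged 6 to 8 weeks, 72 h after thioglycollate had been injected there, which recruits inflammatory macrophages. C498 samples received C498 (C498-0670) at 15 µM, and C498+LPS samples received C498 at the same dose for 0.5 h and then LPS at 100 ng/ml for a further 4 h. NC samples received only the vehicle, labelled DMSO, and LPS samples received vehicle and then LPS at the same dose and time. No source used here gives the time at which the NC and C498 samples were collected. If it differed from that of the samples with LPS, LPS and time cannot be told apart. Nor is it said whether the 2 samples of a group came from separate mice or cultures. P-values thus measure the spread between these samples and no more.

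LPS is a component of the outer membrane of Gram-negative bacteria. It is handed by Cd14 to the receptor Tlr4, whose adaptors switch on NFκB and MAP kinases and, from endosomes, the factors that turn on the type I interferon gene. Secreted interferon then acts through JAK kinases and STAT factors on a further set of genes. Inhibitors that the same pathways induce, such as Nfkbia, Tnfaip3, Socs3 and Zc3h12a, limit the response. C498 was studied as an inhibitor of both JAK/STAT and NFκB signaling.

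The 2 samples of each group correlated at Pearson's r between 0.962 and 0.981 over these genes, and between 17528 and 18975 genes were above 0 in a sample. Depth is unknown, because TPM does not hold read numbers. Macrophage markers were high in the samples compared, with Cd68 between 2208 and 2877 TPM and Adgre1, the F4/80 antigen, between 323 and 450 TPM. The 26 macrophage identity genes summed to 20822 and 20798 TPM in C498 and to 17110 and 14896 TPM in C498+LPS samples, so the groups did not overlap, and Cd163 alone was below 1 TPM in all 4 samples. Mitochondrial transcripts took 3.01% and 3.07% of TPM in C498 samples and 3.12% and 4.60% in C498+LPS samples, the higher value in replicate 2. The same library had the highest summed level of B cell markers, with 135 TPM against 60.2 to 77.8 in the other C498-treated samples, most of it from the immunoglobulin gene Ighm, and 2 of the 10 markers were below 1 TPM in all 4 samples. Fibroblast markers summed to 662 and 787 TPM in C498 samples and to 652 and 958 in C498+LPS samples, so the groups overlapped, but both stood above the 161 to 220 TPM of the samples without C498. Of 13 neutrophil markers, 7 were below 1 TPM in all 4 samples, and their sum was between 159 and 185 TPM. For T cells, 7 of 11 markers, including Cd3e, Cd4 and Cd8a, were below 1 TPM in all 4 samples, and the sum was 168 and 154 TPM in C498 and 93.5 and 86.3 in C498+LPS samples, most of it from the IL-7 receptor gene Il7r, at 163 and 149 against 88.6 and 76.6 TPM. Summed markers of mesothelial, endothelial, NK, mast and dendritic cells and eosinophils were at most 36.6 TPM in any of the 4 samples. The part of other cell types, or of C498+LPS replicate 2, in the results was not tested beyond leaving out each library in turn, and in bulk samples fewer cells of a type and less RNA per cell cannot be told apart.

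Under C498, LPS upregulated 307 genes (2.52% of those tested) and downregulated 381 (3.13%), where called genes changed at least 2-fold with adjusted p up to 0.05 by limma on log2(TPM + 1). At an unadjusted p under 0.05 there were 3886 genes. Of the upregulated genes, 86 changed by at least 2 on the log2 scale and 25 by at least 3, against 30 and 2 of the downregulated genes, so the rises were larger than the falls. The replicates of the 2 groups did not overlap for any of the 307 and 381 genes. The thresholds for a call favour such genes, and the share over all tested genes was not taken, so this adds no support. Without C498 replicate 1 the counts were 183 and 183, without C498 replicate 2 they were 181 and 188, and without C498+LPS replicate 2 the downregulated genes numbered 202. The median tested gene fell by 0.18 on the log2 scale under C498 and by 0.17 in LPS vs NC. Centring each sample on its median gene changed the split to 434 upregulated and 196 downregulated genes, and quantile normalization to 410 and 262.

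Most of what LPS moved under C498 it also moved in vehicle-treated cells, which are different samples. Of the 307 genes upregulated under C498, 267 were also upregulated in LPS vs NC, where 5.55% of tested genes were, and of the 381 downregulated genes 288 were also downregulated there, where 6.68% were. Over all tested genes the log2 changes in the 2 comparisons correlated at r = 0.66, a description across genes, which are not independent. For the 307 upregulated genes the median log2 change was 1.43 under C498 and 1.95 in vehicle, and 243 of them had the smaller change under C498, although they had been chosen for a large change there. The 381 downregulated genes had medians of -1.27 and -1.40. The interaction, which tests whether the LPS change differs between the arms, passed the same thresholds for 57 genes, of which 48 (0.394%) had a more negative LPS change under C498 and 9 (0.0738%) a more positive one. At an unadjusted p under 0.05 it held 1351 genes. All 57 kept their sign when each library in turn was left out, but only 5 kept their call each time, and these were the chemokine genes Cxcl1, Cxcl2, Cxcl10, Ccl3 and Ccl4, at adjusted p up to 0.044. The counts then ran from 9 to 64 more negative and from 0 to 28 more positive genes, and every other gene of the 57 lost its call without at least 1 library.

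**Figure D1:**
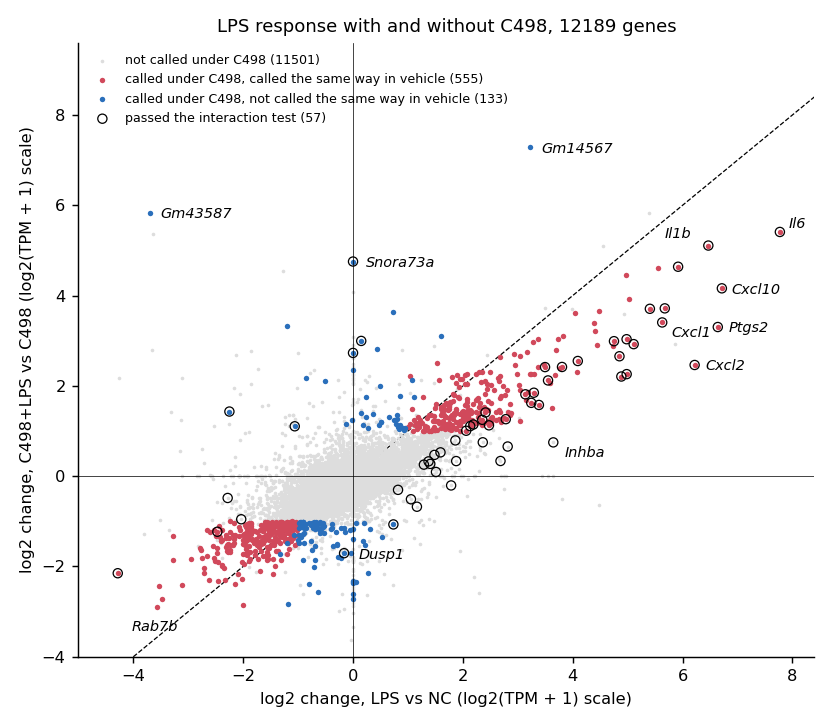
Log2 change with LPS in C498-treated cells (C498+LPS vs C498, vertical axis) against that in vehicle-treated cells (LPS vs NC, horizontal axis) for the 12189 tested genes, with equal change on the dashed line. Red points are the 555 genes called the same way in both, blue points the 133 called under C498 but not the same way in vehicle, and black rings the 57 genes that passed the interaction test; most strongly raised genes, such as Il6 and Cxcl10, lie below the line.

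Cytokine genes were the most strongly raised group. Of 31 genes on the list, 25 passed the filter on low values, and 20 of these were upregulated under C498 (80%, against 2.52% of all tested genes) and none downregulated, with a median log2 change of 1.40 under C498, against -0.18 over all tested genes, and of 2.51 in LPS vs NC. Il6, the cytokine that drives the acute-phase response, was at 8.29 and 9.18 TPM in C498 samples and at 424 and 401 TPM in C498+LPS samples. This rise, 47.2-fold between the means and 5.41 ± 0.15 (SE) on the log2 scale (adjusted p = 5.74e-06), was the largest of the list on that scale, on which TPM + 1 is compared and low genes change by less than their ratio. In vehicle-treated cells Il6 went from 1.05 and 1.80 to 532 and 512 TPM. Its start was thus higher and its end lower under C498, but the end did not pass in C498+LPS vs LPS (log2 change -0.34, adjusted p = 0.19). The interaction was -2.36 ± 0.22 (adjusted p = 0.013). Il1b, which encodes the pyrogenic cytokine IL-1β, rose from 37.3 and 35.1 to 1443 and 1137 TPM, or 35.6-fold (log2 change 5.11 ± 0.14, adjusted p = 5.74e-06). Tnf, an early cytokine that activates endothelium, rose from 116 and 107 to 1588 and 1347 TPM, or 13.2-fold (log2 change 3.71 ± 0.10, adjusted p = 5.74e-06). In LPS samples Tnf was at 2157 and 2190 TPM, above both C498+LPS samples.

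Il12a and Il27, which encode subunits of IL-12 and IL-27 that instruct T cells, started low and stayed below the vehicle arm at the end. Il12a rose from 1.08 and 0.99 to 53.3 and 46.2 TPM (log2 change 4.64 ± 0.13, adjusted p = 5.74e-06), against 176 and 164 TPM in LPS samples. Il27 rose from 3.72 and 2.64 to 99.7 and 99.8 TPM (log2 change 4.60 ± 0.15, adjusted p = 8.96e-06), against 240 and 254 TPM in LPS samples. The interaction passed for Il12a, at -1.28 (adjusted p = 0.049), and not for Il27, at -0.95 (adjusted p = 0.15). Further large rises were those of Tnfsf15, a TNF family ligand, from 0.39 and 0.52 to 36.7 and 25.8 TPM, and of Il1a, an alarmin of the IL-1 family, from 99.1 and 84.0 to 1603 and 1231 TPM. Outside the cytokine list, Edn1, the precursor of the vasoconstrictor endothelin-1, rose from 2.51 and 2.03 to 44.7 and 39.2 TPM. The 5 tested cytokine genes that were not called were Tnfsf14, Osm, Ebi3, Il36g and Csf1, at log2 changes between -0.63 and 0.46. Il17a and Ifng, best known from lymphocytes, rose from 8.28 and 9.89 to 20.1 and 27.95 TPM and from 12.7 and 14.7 to 25.9 and 48.0 TPM, and were at most 1.15 TPM in NC samples. Both calls were lost without either C498 library or C498+LPS replicate 2, and that of Ifng also without either LPS library, at adjusted p up to 0.15. Of the T cell markers given above, 7 of 11 were below 1 TPM in all 4 samples, and the lower sum in C498+LPS samples came from Il7r, while Lck, the other tested marker, was at 1.45 and 1.38 TPM in C498 and 1.53 and 2.53 TPM in C498+LPS samples. Summed NK cell markers, 8 of 10 of them below 1 TPM in all 4 samples, were at 1.85 and 2.67 TPM in C498 and 4.00 and 5.87 TPM in C498+LPS samples, which did not overlap, and Klrk1 among them was upregulated, at a log2 change of 1.21. The part of T or NK cells in these values was not tested. Ifnb1, the type I interferon gene, fell below the filter, at 0 and 0.13 TPM in C498 and 1.10 and 0.65 TPM in C498+LPS samples.

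Among 22 tested chemokine genes, 11 were upregulated (50%, against 2.52% of all tested genes) and none downregulated, with a median log2 change of 0.85 under C498 and 1.63 in LPS vs NC. Cxcl10, an interferon-induced attractant of T cells, rose from 131 and 110 to 2011 and 2324 TPM, or 18.0-fold (log2 change 4.16 ± 0.12, adjusted p = 5.74e-06). The neutrophil attractants Cxcl1 and Cxcl2 had a different pattern from Il6. Cxcl1 rose from 131 and 114 to 1407 and 1207 TPM, above the 659 and 665 TPM of LPS samples. NC samples were at 12.7 and 12.1 TPM, and the ratio of means was 10.7 under C498 and 53.4 in vehicle. Cxcl2 rose from 755 and 646 to 4235 and 3503 TPM, or 5.53-fold (log2 change 2.46 ± 0.17, adjusted p = 2.76e-04), and in vehicle from 41.5 and 29.5 to 2678 and 2680 TPM. Its interaction of -3.76 ± 0.24 (adjusted p = 0.0031) was the most negative of the genes that passed that test. Cxcl3 ended lower than in vehicle, at 735 and 527 TPM against 1615 and 1720, from 82.6 and 72.8 TPM in C498 samples. The CC chemokines Ccl3 and Ccl4, neighbouring genes with similar sequences between which read counting can be uncertain, rose from 1340 and 1135 to 6133 and 5291 TPM and from 430 and 365 to 3057 and 2974 TPM.

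**Figure D2:**
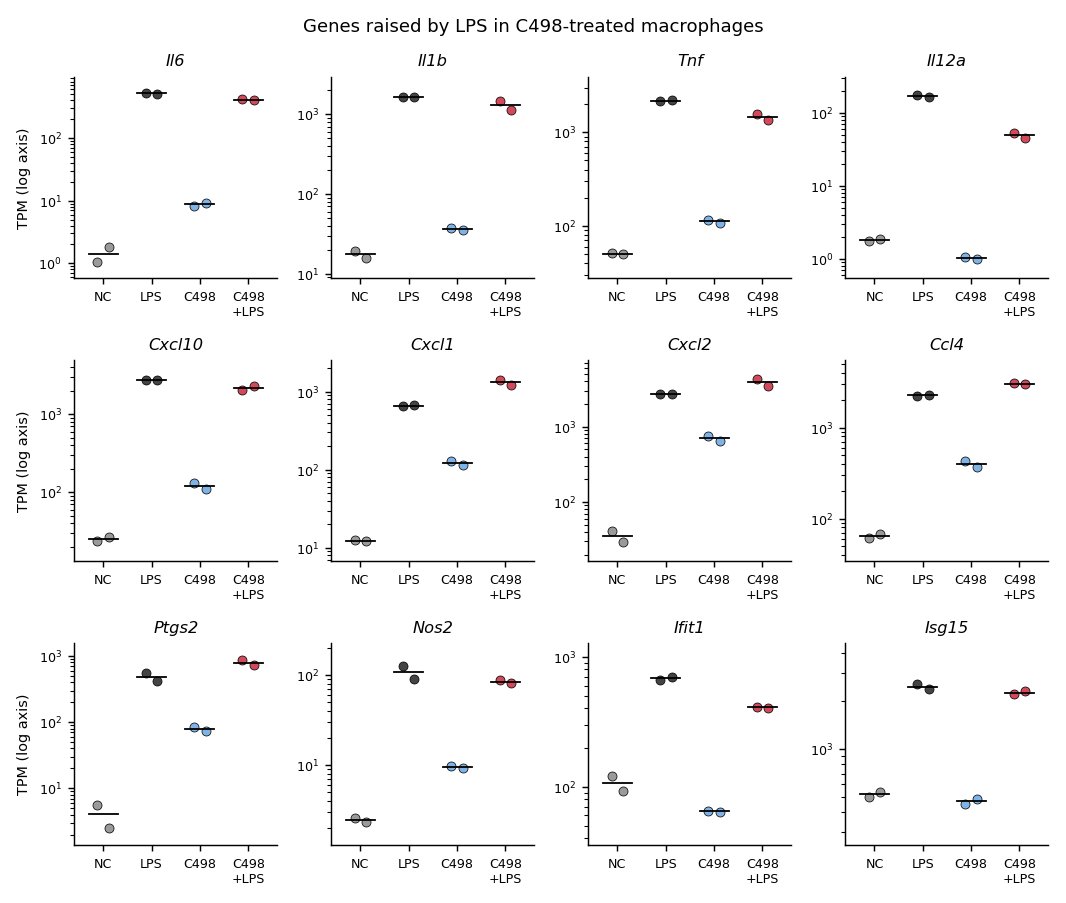
TPM (log axis) of 12 genes that LPS raised in C498-treated cells, with 1 dot per sample, 2 samples per group, and a bar at the group mean. In each panel both C498+LPS dots lie above both C498 dots. C498 lies above NC in all panels but those of Il12a, Ifit1 and Isg15. C498+LPS lies below LPS in all panels but those of Cxcl1, Cxcl2, Ccl4 and Ptgs2.

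The 250 bases before the transcription start of 4 of these genes are shown because they hold an NFκB motif, here spelled GGGA, any base, TT, any base, CC and searched on both strands. They are the RefSeq sequences on GRCm38.p6, at chr5:30012864-30013113 (+ strand) for Il6, chr5:90890995-90891244 (+ strand) for Cxcl1, chr5:90903649-90903898 (+ strand) for Cxcl2 and chr5:92348890-92349139 (- strand) for Cxcl10. Capitals mark the motif, which begins 44, 71, 97 and 103 bases before the start, and in Cxcl10 also the ISRE core (GAAA, any 2 bases, GAAA), the interferon-response sequence, 213 bases before it.
Il6: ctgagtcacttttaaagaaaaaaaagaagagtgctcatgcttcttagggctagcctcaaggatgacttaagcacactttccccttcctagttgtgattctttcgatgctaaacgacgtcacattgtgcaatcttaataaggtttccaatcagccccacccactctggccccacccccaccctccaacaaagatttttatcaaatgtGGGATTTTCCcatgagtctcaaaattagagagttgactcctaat
Cxcl1: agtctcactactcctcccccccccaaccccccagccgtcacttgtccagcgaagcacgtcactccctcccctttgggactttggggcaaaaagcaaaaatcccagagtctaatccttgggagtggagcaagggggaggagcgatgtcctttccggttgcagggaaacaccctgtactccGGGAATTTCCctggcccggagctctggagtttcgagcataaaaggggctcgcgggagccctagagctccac
Cxcl2: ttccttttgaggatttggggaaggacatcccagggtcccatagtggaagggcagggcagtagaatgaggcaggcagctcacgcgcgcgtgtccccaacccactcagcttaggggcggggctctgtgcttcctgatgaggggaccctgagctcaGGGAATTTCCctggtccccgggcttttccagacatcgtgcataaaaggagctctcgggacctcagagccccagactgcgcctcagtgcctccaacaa
Cxcl10: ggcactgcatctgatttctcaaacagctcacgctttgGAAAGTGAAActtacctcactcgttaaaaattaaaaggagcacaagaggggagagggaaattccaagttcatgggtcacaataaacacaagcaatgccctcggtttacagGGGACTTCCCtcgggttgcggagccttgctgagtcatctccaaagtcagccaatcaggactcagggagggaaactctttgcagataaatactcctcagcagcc

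The NFκB motif was in 322 of 32851 stretches of this length before a start (0.980%) and, of genes matched by symbol, in 130 of 9054 tested genes (1.44%), 14 of the 211 upregulated genes with a sequence (6.64%) and 5 of the 280 downregulated genes with one (1.79%). The AP-1 motif TGANTCA was in 6.75% of all stretches, in 5.68% of tested genes, in 31 upregulated genes (14.7%) and in 21 downregulated genes (7.5%). Here and below, each stretch counts on its own, whereas a gene counts if any of its stretches holds the motif. Shares of stretches and of genes are thus unlike measures. These matches describe the letters and do not show binding.

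Many genes induced by interferon rose. Of 37 tested interferon-stimulated genes, 17 were upregulated under C498 (45.9%, against 2.52% of all tested genes) and none downregulated, with a median log2 change of 0.91, and in LPS vs NC 24 were upregulated, against 5.55% of all tested genes, with a median of 1.63. Ifit1, which binds viral RNA, rose from 65.3 and 64.3 to 408 and 406 TPM (log2 change 2.63 ± 0.12, adjusted p = 5.21e-05). In vehicle it rose from 121 and 92.7 to 667 and 703 TPM, so that both ends were lower under C498 while the folds were 6.28 and 6.42. Isg15, a ubiquitin-like modifier, rose from 452 and 487 to 2211 and 2302 TPM under C498 and from 503 and 535 to 2547 and 2369 TPM in vehicle. The interaction was -0.05 ± 0.18 for Ifit1 and 0.02 ± 0.12 for Isg15, far smaller than for Cxcl10, though these 2 values alone do not show that the arms were alike. Cmpk2, a mitochondrial nucleotide kinase, rose from 53.1 and 59.8 to 495 and 489 TPM, and Mx1, an antiviral GTPase, from 21.5 and 27.8 to 187 and 153 TPM. Oasl1, of the oligoadenylate synthetase family, and Gbp5, a guanylate-binding protein gene whose reads can be shared with its paralogs, were also among the 4 members with the largest changes, at log2 changes of 2.71 and 2.91. Rsad2, the antiviral enzyme viperin, and Igtp, an interferon-induced GTPase, were the 2 members with a more negative LPS change under C498 by the interaction, at -1.54 and -1.07. Irf7, a factor that amplifies the interferon response, did not pass, at a log2 change of -0.17.

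Ifit1 (chr19:34640639-34640888, + strand) and Isg15 (chr4:156200819-156201068, - strand) are shown for their ISRE cores, in capitals. Ifit1 holds 2, on the opposite strand, and Isg15 3 that overlap in 1 run.
Ifit1: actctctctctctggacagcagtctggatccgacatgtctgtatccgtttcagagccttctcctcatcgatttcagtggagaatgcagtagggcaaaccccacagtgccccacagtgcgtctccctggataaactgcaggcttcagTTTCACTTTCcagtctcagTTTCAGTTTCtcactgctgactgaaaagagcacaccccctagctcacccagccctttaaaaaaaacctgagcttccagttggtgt
Isg15: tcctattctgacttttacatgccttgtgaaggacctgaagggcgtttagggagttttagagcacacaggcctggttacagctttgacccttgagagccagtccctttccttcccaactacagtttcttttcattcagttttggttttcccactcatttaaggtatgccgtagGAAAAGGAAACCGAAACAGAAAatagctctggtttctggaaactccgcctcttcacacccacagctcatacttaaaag

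The ISRE core was in 978 of 32851 stretches (2.98%), in 314 of 9054 tested genes (3.47%), in 29 of 211 upregulated genes (13.7%), in 5 of 280 downregulated genes (1.79%) and in 14 of the 28 interferon-stimulated genes with a sequence (50.0%).

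On the receptor side of the pathway, Cd14 was upregulated and Tlr4 downregulated of 23 tested genes for the LPS receptor and its adaptors, and the median log2 change was -0.05. Each is 4.35% of the list, near the 2.52% and 3.13% of all tested genes. Cd14 rose from 686 and 663 to 1797 and 1794 TPM (log2 change 1.41 ± 0.08, adjusted p = 1.02e-04). Tlr4 was at 16.0 and 13.95 TPM in C498 and 7.10 and 4.53 TPM in C498+LPS samples (log2 change -1.25 ± 0.30, adjusted p = 0.031). The Tlr4 call was lost without any 1 of the LPS, C498 or C498+LPS libraries, at adjusted p up to 0.18, and in LPS vs NC Tlr4 was at 27.8 and 15.3 against 14.1 and 12.6 TPM and was not called. Of 18 tested genes for NFκB subunits and their inhibitors, 8 were upregulated (44.4%) and none downregulated, with a median log2 change of 0.91. The adaptor Traf1 rose from 26.4 and 25.4 to 150 and 135 TPM (log2 change 2.42 ± 0.10, adjusted p = 2.25e-05). Nfkbiz, a nuclear IκB protein needed for Il6 induction, rose from 26.5 and 24.2 to 134 and 114 TPM. Nfkb1 and Nfkb2, the genes of the p50 and p52 subunits, had log2 changes of 1.64 and 1.51, and Nfkbia, the classical IκB inhibitor, of 1.45. Tnfaip3, the deubiquitinase A20, had a log2 change of 1.2 (adjusted p = 0.0066), and its call was lost without either C498 library or C498+LPS replicate 1, at adjusted p up to 0.070. Tnip1, an A20 partner, and Rel, the c-Rel subunit, were the remaining upregulated members, at log2 changes of 1.44 and 1.08. The Rel call was lost without any 1 of the LPS, C498 or C498+LPS libraries, at adjusted p up to 0.22.

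Of 19 tested JAK, STAT and IRF genes, 3 were upregulated under C498 (15.8%, against 2.52% of all tested genes) and none downregulated. Stat5a, a factor downstream of colony-stimulating factors, rose from 17.1 and 13.8 to 84.9 and 67.9 TPM (log2 change 2.23 ± 0.21, adjusted p = 9.08e-04). Jak2 rose from 36.9 and 35.2 to 115 and 96.2 TPM (log2 change 1.52 ± 0.23, adjusted p = 0.0064), a call lost without either C498 library or C498+LPS replicate 1, at adjusted p up to 0.067. Irf8, a factor that directs macrophage and dendritic cell genes, rose from 122 and 106 to 299 and 270 TPM (log2 change 1.31 ± 0.13, adjusted p = 0.0014). In vehicle Irf8 was at 90.7 and 87.4 in NC and 118 and 93.0 TPM in LPS samples, where it was not called, and its interaction of 1.08 did not pass (adjusted p = 0.078). Stat3 was at 100.4 and 107 TPM in C498 and 106 and 96.45 TPM in C498+LPS samples.

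Among 24 tested feedback genes, 6 were upregulated (25%, against 2.52% of all tested genes) and 1 was downregulated (4.17%, near the 3.13% of all tested genes). Zc3h12a, the RNase Regnase-1 that degrades Il6 mRNA, rose from 36.8 and 36.5 to 176 and 147 TPM (log2 change 2.11 ± 0.11, adjusted p = 9.36e-05), and Cish, a SOCS family member, from 10.6 and 8.97 to 31.8 and 29.9 TPM. Socs1, Il1rn, which blocks the IL-1 receptor, and Socs3, which restrains IL-6 signaling, had log2 changes between 1.01 and 1.24. The Socs1 and Socs3 calls were lost without C498 replicate 2 or C498+LPS replicate 1, and that of Socs3 also under quantile normalization, at log2 changes down to 0.97 and 0.90. Il10, the anti-inflammatory cytokine, was at 0.55 and 0.66 TPM in C498 and 2.66 and 3.89 TPM in C498+LPS samples (log2 change 1.40 ± 0.28, adjusted p = 0.018). Its levels in NC and LPS samples, 0.52 to 1.16 TPM, overlapped, the interaction did not pass (adjusted p = 0.32), and the call was lost without either C498 library or C498+LPS replicate 2, at adjusted p up to 0.090.

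Effector enzyme and surface genes of activated macrophages were raised more often than lowered. Of 22 tested effector enzymes, 8 were upregulated (36.4%, against 2.52% of all tested genes), among them Ptgs2, the inducible cyclooxygenase, from 83.8 and 73.8 to 856 and 720 TPM (log2 change 3.30 ± 0.28, adjusted p = 6.37e-04), and Nos2, the inducible nitric oxide synthase, from 9.84 and 9.13 to 88.7 and 81.0 TPM (log2 change 3.03 ± 0.17, adjusted p = 9.45e-05). Slc7a2, which imports arginine, rose from 17.9 and 17.2 to 208 and 140 TPM, and Acod1, which makes itaconate, from 550 and 534 to 2072 and 1660 TPM. Downregulated were 2 members (9.09%, against 3.13%), and none when samples were centred or quantile normalized. Of the 2, Alox15, a lipoxygenase, was at 1.06 and 1.86 TPM in C498 and 0.15 and 0.23 TPM in C498+LPS samples. The Alox15 call was also lost without any 1 of 6 libraries. Of 26 tested inflammasome and cell death genes, 7 were upregulated (26.9%), among them Nlrp3, the inflammasome sensor, from 19.9 and 24.9 to 141 and 115 TPM, and Bcl2a1a, Bcl2a1b and Bcl2a1d, near-identical survival genes that share reads. Of 18 tested costimulation and adhesion genes 7 were upregulated (38.9%), led by the early activation antigen Cd69, from 3.14 and 3.61 to 51.8 and 56.6 TPM, and the costimulatory receptor Cd40, from 25.1 and 28.7 to 199.9 and 182 TPM. Of 25 tested chemokine and pattern receptors, 9 were upregulated (36%), with Ccrl2, an atypical chemokine receptor, highest by change (log2 change 2.42), and Cxcr4 and the nucleotide receptor P2ry6 were downregulated, at log2 changes of -1.85 and -1.81.

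**Figure D3:**
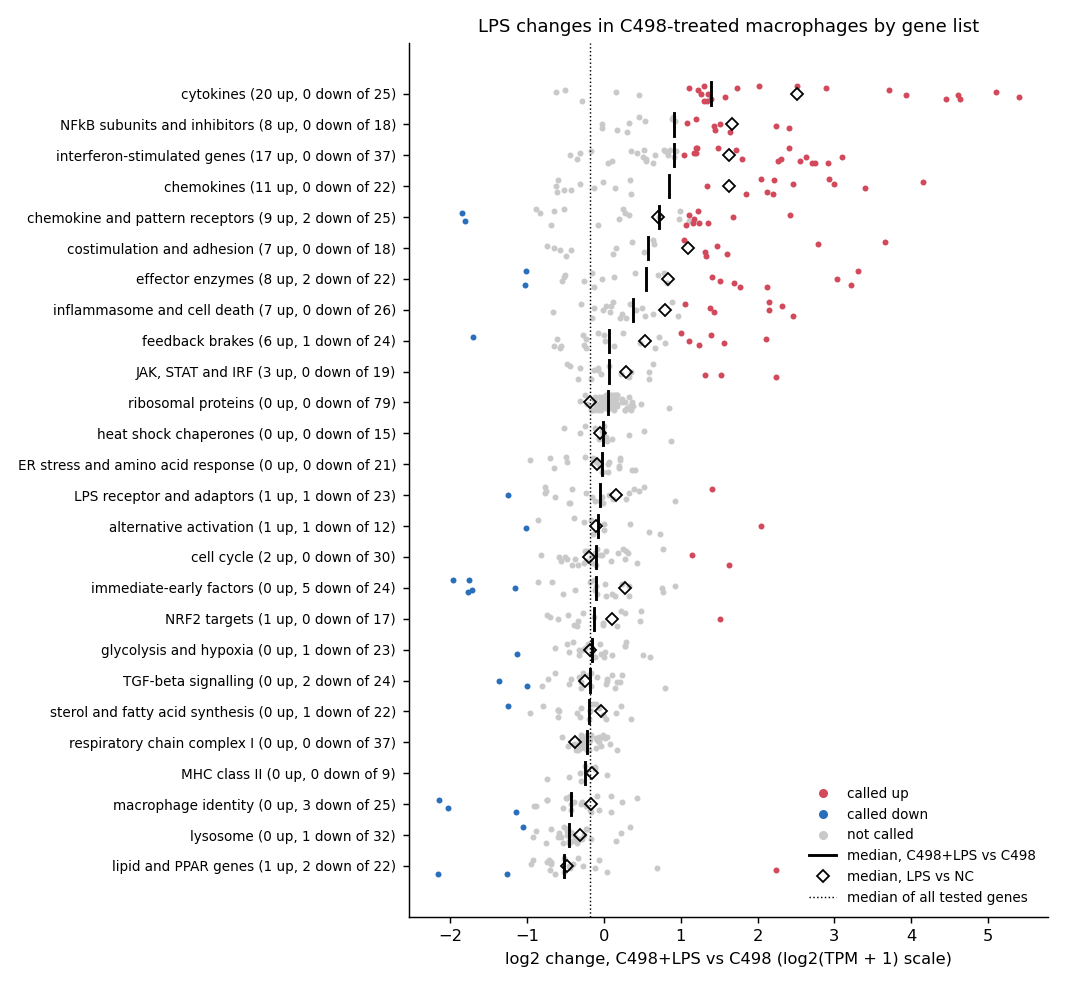
Log2 change in C498+LPS vs C498 (horizontal axis, log2(TPM + 1) scale) of the tested members of 26 gene lists, 1 dot per gene, in red where upregulated, blue where downregulated and grey where not called. The thick bar is the median of the list, the open diamond its median in LPS vs NC and the dotted line the median of all tested genes, at -0.18; cytokines have the highest median at 1.40 and lipid and PPAR genes the lowest at -0.52.

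Start and end levels of the smaller responses were then set side by side. Of the 30 genes that were upregulated under C498 and had a more negative LPS change there by the interaction, 29 had a higher mean in C498 than in NC samples, and 17 had a lower mean in C498+LPS than in LPS samples. Both held for 16, and in 13 the start was higher while the end was equal to or above that of LPS samples. Over the 267 genes upregulated in both arms, 161 had a higher start and 197 a lower end, and over all tested genes 6160 and 5954 did. The 30 genes were chosen by the interaction, which is made of these same 4 means, so the counts describe them and test nothing. By these means, among those with a higher end were Cxcl1, Cxcl2, Ptgs2, Ccl4, Ccrl2 and Cd14, and among those with a lower end Il12a, Cxcl3, Ptges, Traf1 and Tnf. Of the genes named, only Il12a, Cxcl3 and Ptges were called in C498+LPS vs LPS. Cxcl2 and Ptgs2 did not pass adjusted p there (0.082 and 0.14). Ptgs2, for example, went from 5.64 and 2.54 to 549 and 425 TPM in vehicle, so by the means its end was higher and its fold smaller under C498.

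**Figure D4:**
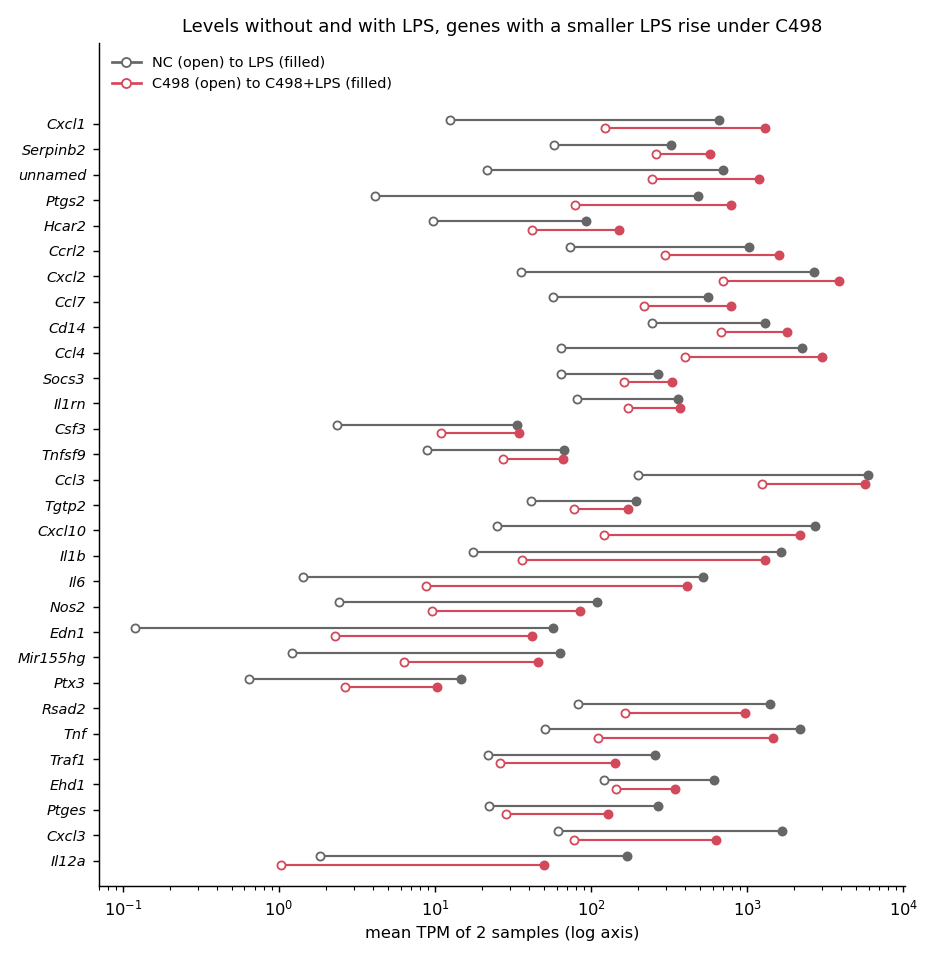
Mean TPM of 2 samples (log axis) without LPS (open circles) and with LPS (filled circles), in vehicle (grey) and under C498 (red), for the 30 genes upregulated under C498 whose LPS change was more negative there by the interaction. Genes are ordered by the difference between the filled circles; 29 of 30 red open circles lie to the right of the grey ones, and 17 of 30 red filled circles lie to the left.

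A further 16 genes with a more negative LPS change under C498 were not called in C498+LPS vs C498 at all. The interaction gave Inhba, a subunit of activin A, -2.90 (adjusted p = 0.041). Inhba was at 113 and 90.1 TPM in C498 and 210 and 138 TPM in C498+LPS samples (log2 change 0.75, adjusted p = 0.12), against 7.45 and 4.68 in NC and 103 and 71.4 in LPS samples. For Gdf15, a stress-induced cytokine, Osm, a cytokine of the IL-6 family, and Rgs1, a regulator of chemokine receptor signaling, the log2 changes under C498 were -0.21, -0.51 and -0.68 and missed the thresholds (adjusted p = 0.32, 0.066 and 0.018), whereas all 3 were upregulated in vehicle. Rgs1, for example, was at 464 and 369 TPM in C498 and 248 and 269 TPM in C498+LPS samples, and at 72.8 and 68.0 in NC and 172 and 147 in LPS samples. These names, except Inhba, were chosen after their values were seen.

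Among genes with a name, the falls were led by a late endosomal GTPase gene, an F-box gene and a myeloid receptor gene. Rab7b, a small GTPase of late endosomes that promotes Tlr4 degradation, went from 105 and 96.7 to 12.55 and 12.62 TPM (log2 change -2.91 ± 0.13, adjusted p = 4.69e-05). In vehicle it went from 127 and 107 to 8.26 and 9.66 TPM. Cd300lb, an activating receptor of myeloid cells, went from 64.4 and 62.8 to 9.31 and 8.41 TPM (log2 change -2.71 ± 0.13, adjusted p = 5.36e-05), and Tmem86a, a lysoplasmalogenase, from 35.6 and 37.2 to 5.88 and 5.97 TPM (log2 change -2.43 ± 0.14, adjusted p = 9.81e-05). Fbxo32, a ubiquitin ligase subunit best known from muscle, went from 19.3 and 17.2 to 1.67 and 1.69 TPM, and Eepd1, a nuclease family member, from 29.2 and 27.5 to 4.87 and 4.25 TPM. The interaction did not pass for any of these 5 genes, at adjusted p between 0.078 and 0.36, which does not show that the falls were equal. Apbb3, Pagr1a, 7SK and Pdcd5-ps were also among the 10 largest falls of genes with a name, but each lost its call without at least 4 single libraries, and 7SK, here 1 of 2 tested genes with that symbol, and Pdcd5-ps were listed at 0 in all NC and LPS samples.

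Of 25 tested macrophage identity genes, 3 were downregulated and none upregulated under C498. The downregulated share was 12%, against 3.13% of all tested genes, and the median log2 change was -0.42, against -0.18. Cebpa, a myeloid transcription factor, fell from 189 and 170 to 46.6 and 39.7 TPM (log2 change -2.03 ± 0.11, adjusted p = 8.99e-05). Csf1r, the receptor for M-CSF, was at 249 and 209 TPM in C498 and 117 and 89.9 TPM in C498+LPS samples (log2 change -1.14 ± 0.18, adjusted p = 0.0080), and its call was lost when samples were centred on the median gene and without C498 replicate 1 or C498+LPS replicate 2, at log2 changes between -1.33 and -0.93. Outside this list, Mknk2, a kinase that phosphorylates eIF4E, fell from 150.3 and 145 to 61.65 and 63.0 TPM under C498 and from 59.0 and 60.05 to 10.4 and 9.49 TPM in vehicle, with an interaction of 1.24 (adjusted p = 0.021). Relt, a TNF receptor family member, was at 9.13 and 9.97 TPM in C498 and 5.64 and 7.57 TPM in C498+LPS samples, without a call, and fell in vehicle from 13.8 and 15.2 to 2.42 and 1.95 TPM. Of 22 tested lipid and PPAR genes, Abcg1, a cholesterol exporter, and Pparg, the lipid-sensing nuclear receptor, were downregulated (9.09%, against 3.13% of all tested genes), at log2 changes of -2.16 and -1.27, and Olr1, a receptor for oxidized LDL, was upregulated (4.55%, against 2.52%), at 2.25. Fabp4, a lipid carrier and target of Pparg, was at 324 and 335 TPM in C498 and 170 and 169 TPM in C498+LPS samples and at 368 and 418 in NC and 92.0 and 98.0 in LPS samples, with an interaction of 1.08 (adjusted p = 0.025).

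**Figure D5:**
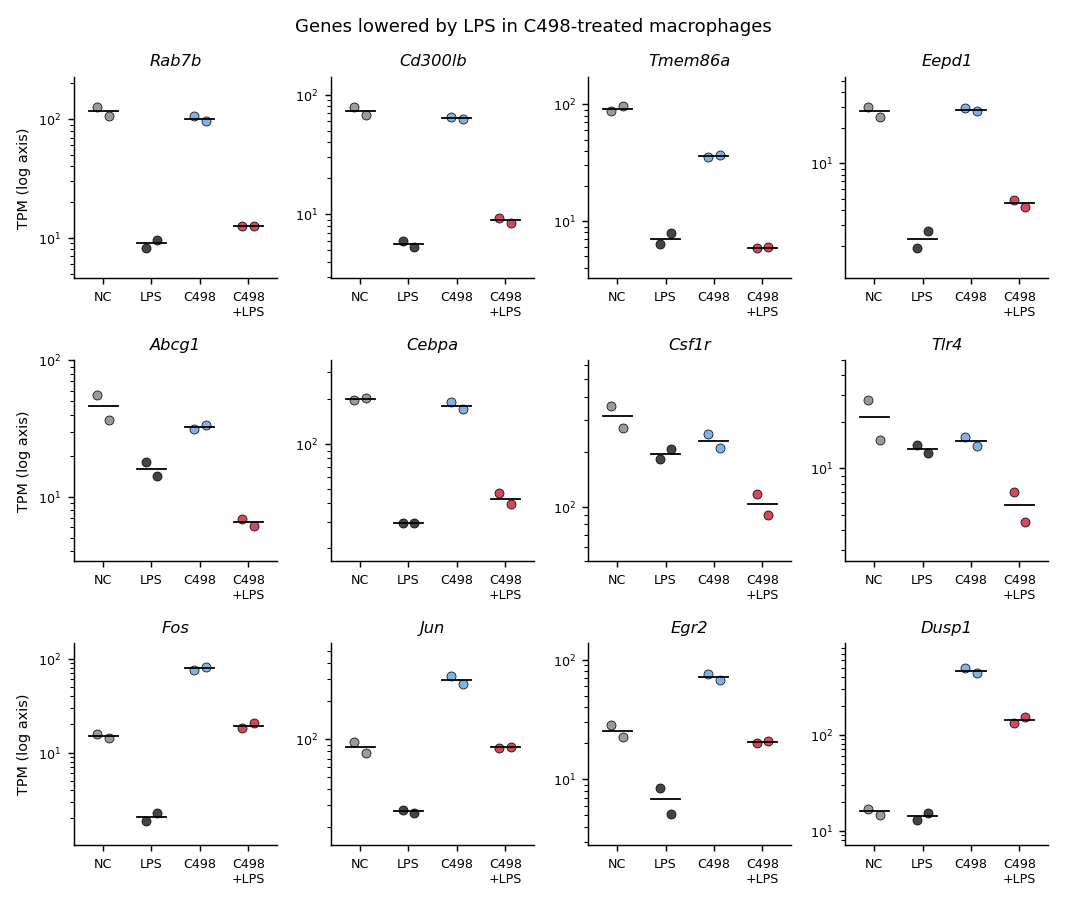
TPM (log axis) of 12 genes that LPS lowered in C498-treated cells, with 1 dot per sample, 2 samples per group, and a bar at the group mean. In each panel both C498+LPS dots lie below both C498 dots; for Fos, Jun, Egr2 and Dusp1 the C498 samples are the highest of all 8, and for Dusp1 the NC and LPS samples lie close together, between 12.8 and 16.98 TPM.

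Among immediate-early genes, which signaling switches on within minutes, the called members fell from C498 levels that lay above those of NC samples. The collection time of C498 samples is not given. LPS and time with C498 thus cannot be told apart for these falls or for that of Dusp1 below. Of 24 tested members, 5 were downregulated under C498 (20.8%, against 3.13% of all tested genes) and none upregulated. In LPS vs NC 4 were downregulated and 4 upregulated, against 6.68% and 5.55% of all tested genes. Fos, an AP-1 subunit, fell from 76.3 and 80.3 to 18.1 and 20.5 TPM under C498 (log2 change -1.97 ± 0.14, adjusted p = 2.85e-04), and in vehicle from 15.9 and 14.3 to 1.89 and 2.27 TPM. Jun, its partner, fell from 320 and 275 to 85.7 and 86.6 TPM, and Egr2, a zinc finger factor, from 76.1 and 68.0 to 20.3 and 21.0 TPM. Both also fell in vehicle, Jun from 94.7 and 77.7 to 27.6 and 26.2 TPM and Egr2 from 28.3 and 22.7 to 8.49 and 5.12 TPM. Fosb fell from 25.5 and 26.4 to 6.38 and 8.17 TPM under C498, and it was at most 0.06 TPM in NC and LPS samples. Nr4a1, an orphan nuclear receptor named here after its values were seen, was at 105 and 104 TPM in C498 and 42.8 and 49.8 TPM in C498+LPS samples, against 0.97 to 1.79 TPM without C498. Its call was lost without either C498 library and when samples were centred on the median gene, at log2 changes between -1.27 and -0.95, and its interaction of -1.47 missed the threshold (adjusted p = 0.0504).

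Dusp1, the phosphatase that switches off p38 and JNK and thus restrains cytokine output, was the feedback gene downregulated under C498. It fell from 496 and 435 to 131 and 153 TPM (log2 change -1.71 ± 0.14, adjusted p = 5.20e-04). In NC and LPS samples it was at 16.98 and 14.7 and at 12.8 and 15.3 TPM, which overlapped. The interaction passed, at -1.54 ± 0.20 (adjusted p = 0.031). Its 250 bases before the start (chr17:26508473-26508722, - strand) are shown for the cAMP-response motif TGACGTCA, in capitals, 143 bases before it.
Dusp1: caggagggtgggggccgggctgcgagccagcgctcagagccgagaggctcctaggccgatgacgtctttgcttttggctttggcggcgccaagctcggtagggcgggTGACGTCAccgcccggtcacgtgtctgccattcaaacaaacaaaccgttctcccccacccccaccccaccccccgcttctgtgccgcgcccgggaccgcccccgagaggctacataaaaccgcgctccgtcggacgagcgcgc
This motif was in 508 of 32851 stretches (1.55%), in 279 of 9054 tested genes (3.08%), in 8 of 280 downregulated genes (2.86%), in 3 of 211 upregulated genes (1.42%) and in 2 of the 19 immediate-early genes with a sequence.

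Called under C498 but not in the same direction in vehicle were 40 upregulated and 93 downregulated genes, with median log2 changes of 1.37 and -1.17 under C498 and of 0.49 and -0.67 in vehicle. In vehicle 29 of the 40 and 77 of the 93 changed with the same sign, and the interaction passed for 5 and 2 of them. Of the 40, 20 were predicted, unnamed or assembled genes and 28 had a mean under 10 TPM over the 4 samples compared, against 69 of the 267 upregulated in both arms. The largest fitted changes belonged to such genes. Gm14567 and Gm43587 were listed at 0 in both C498 samples and at 132 and 180.2 TPM and at 114 and 27.2 TPM in C498+LPS samples, while NC samples were at 0 and 167 TPM and at 45.2 and 75.8 TPM. In all, 11 upregulated genes were listed at 0 in both C498 samples and 8 downregulated genes in both C498+LPS samples. Snora73a, a small nucleolar RNA, was listed at 0 in all samples but the C498+LPS samples, at 35.5 and 18.9 TPM, and the ribosomal pseudogene Rpl35a-ps6 was at 4.98 and 7.39 TPM there and at most 0.14 elsewhere. Hamp, the iron hormone hepcidin, was at 16.3 and 8.05 TPM in C498+LPS samples and at 0 in both C498 samples. Igkv4-57-1, an immunoglobulin segment, and Spaca6 completed the 5 largest rises of genes with a name, at 5.21 and 13.3 TPM and at 7.32 and 8.07 TPM in C498+LPS samples, and both lost their calls without C498 replicate 1. Igkv4-57-1 lost it without any 1 of 6 libraries and moved with the raised B cell markers of C498+LPS replicate 2, whose part was not tested.

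At higher levels, and named after their values were seen, Noct, a rhythmic phosphatase of metabolic cofactors, rose from 21.4 and 24.25 to 54.6 and 56.9 TPM under C498 and from 6.45 and 6.44 to 13.3 and 10.8 TPM in vehicle, where its change fell short of 2-fold. C5ar1, the receptor for complement C5a, and Slfn1, of the Schlafen family, had log2 changes of 1.07 and 1.04 under C498 and of 0.91 and 0.83 in vehicle, on either side of the threshold, and their calls were lost without C498 replicate 1, for C5ar1 also without C498+LPS replicate 1. Among the 93 downregulated genes, Slco4a1, an organic anion transporter, had a log2 change of -1.64 under C498 and -0.75 in vehicle, and Fermt3, an integrin activator of blood cells, of -1.15 and -0.73, with the Fermt3 call lost when samples were centred on the median gene, at -0.94. Only 2 genes were upregulated under C498 and downregulated in vehicle, and none were the reverse. They were the predicted gene Gm5776, from 3.67 and 4.39 to 11.4 and 8.41 TPM under C498, and an assembled gene without a symbol, from 5.82 and 7.37 to 17.1 and 21.9 TPM.

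Housekeeping, metabolic and other lists held between 0 and 4 calls each, against 2.52% of all tested genes upregulated and 3.13% downregulated. None of 79 tested ribosomal protein genes, 37 complex I genes, 21 ER stress and amino acid response genes, 15 heat shock chaperones and 9 MHC class II genes were called, at list medians between -0.25 and 0.06. Of 23 glycolysis and hypoxia genes, Vegfa was downregulated, and Gapdh was at 2294 and 2382 TPM in C498 and 2126.5 and 2193 TPM in C498+LPS samples. Of 30 cell cycle genes, Ccnd2 and Ccne1 were upregulated (6.67%), at log2 changes of 1.63 and 1.14. Of 22 sterol genes, Dhcr7 was downregulated (4.55%), of 24 TGF-β genes, Tgfbr2 and Ski (8.33%), of 32 lysosomal genes, Tfeb, and of 261 Zfp genes, Zfp968, Zfp395, Zfp467 and Zfp266. Of 17 NRF2 targets, the cystine transporter gene Slc7a11 was upregulated, and of 12 alternative activation genes Ccl22 was, with 1 other downregulated. Among marker lists of other cells, Klrk1 (NK cells) and Hdc (mast cells) were upregulated. Apart from Ccnd2 and Ccl22, the calls on these lists were each lost without at least 1 single library, C498 replicate 1 or 2 among them. Lysosomal genes had a median log2 change of -0.45, with 3 of 32 above 0, and -0.31 in LPS vs NC. That list had no call when samples were centred or quantile normalized.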

How the data were processed

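RNA-seq was performed on 8 samples of mouse peritoneal macrophages, 2 in each of the groups NC, LPS, C498 and C498+LPS, and samples were grouped by their titles. Libraries were prepared with a TruSeq kit and sequenced on a NovaSeq instrument, and the authors processed the reads with fastp, HISAT2, StringTie and RSEM. Versions and the genome build are not given in the sources used here. The authors deposited TPM per gene, which carries no record of depth, so no interval from counting could be given. The deposited table of 55801 genes includes genes assembled by StringTie, and its columns of group means and annotation were not used. RSEM divides reads between similar genes, so values of paralogs, pseudogenes and overlapping genes are uncertain.

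Genes with a mean of at least 1 TPM over the 8 samples (12189) entered a limma 3.58.1 fit (R 4.3.3) on log2(TPM + 1), with 1 mean per group, all 8 samples in the fit and a variance trend. P-values were adjusted by the Benjamini-Hochberg method over all tested genes, and a gene was called at an adjusted p up to 0.05 and a change of 2-fold or more. The interaction was the LPS change under C498 minus that in vehicle. The smallest exact two-sided permutation p with 2 against 2 samples is 0.333, so single genes were tested only in this fit. In a simulation of C498+LPS vs C498 over 12189 genes, 55 of 100 genes changed 2-fold and 100 of 100 changed 4-fold were called, with 0 unchanged genes called. Its noise was independent between genes and libraries, with a spread set by mean expression, as the fit assumes. It thus checked the fit and did not measure false calls in these data. Estimates of an exact 2-fold change fall on either side of the 2-fold threshold, whatever the spread. Same-numbered samples of different groups deviated together with r between 0.040 and 0.17, and these numbers were not treated as pairs.

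The comparison and the gene lists were chosen with earlier results of these data known. Named genes were the 10 largest changes in each direction with non-overlapping replicates and a gene name, the 5 largest in each direction not called the same way in vehicle, the 5 largest interactions in each direction, a fixed panel, and up to 4 called members of each list. Other genes named, among them Nr4a1, Isg15, Gdf15, Osm, Rgs1, Gem, Il1rn, Rsad2, Igtp, Il17a, Ifng, Fabp4, Noct, C5ar1, Slfn1, Slco4a1, Fermt3 and predicted genes, and the members behind small counts, were chosen after their values were seen. A few genes that the rule names are not reported here. Alternatives were another pseudocount, filter, scaling, sample set, variance prior, threshold and replicate block, and leaving out each library, where the lone sample of a group was assumed to vary like the others. Sequences before transcription starts were taken from RefSeq (GRCm38.p6) by gene symbol and searched with Python 3.11.15, and figures were drawn with matplotlib 3.10.9.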

Additional observations from a re-analysis of the deposited data

Results flagged for a closer look

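The LPS change differed between C498-treated and vehicle-treated cells by the interaction test (limma, adjusted p of at most 0.05 and at least 2-fold) for 48 genes with a more negative change under C498 and 9 with a more positive one. Among chemokine genes the interaction was -3.76 for Cxcl2, -2.68 for Ccl3, -2.55 for Cxcl10, -2.22 for Cxcl1 and -2.18 for Ccl4, all called without each library in turn, and -1.76 for Cxcl3, whose call was lost without any 1 of 6 libraries. Among cytokine genes it was -2.36 for Il6 (call lost without any 1 of 6 libraries), -1.70 for Tnf (lost without either LPS library), -1.36 for Il1b (7 libraries), -1.28 for Il12a (8), -1.81 for Csf3 (7), -1.03 for the receptor antagonist gene Il1rn (7), -1.57 for Osm (8) and -1.99 for Gdf15 (2). For Inhba it was -2.90 (8) and for Edn1 -1.96 (8). Among enzymes it was -3.34 for Ptgs2 (6), -1.95 for Nos2 (7) and -1.43 for Ptges (7). Among signaling and receptor genes it was -1.001 for Cd14 (7), -1.08 for Traf1 (7), -1.05 for Socs3 (8), -1.54 for Dusp1 (7), -1.39 for Ccrl2 (6), -1.84 for Rgs1 (6) and -2.16 for Gem, a small GTPase (6). Among interferon-stimulated genes it was -1.54 for Rsad2 (6) and -1.07 for Igtp (6).

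More positive under C498 were Relt at 1.80 (8), Mknk2 at 1.24 (6) and Fabp4 at 1.08 (7), all of which LPS lowered in vehicle. Snora73a at 4.75 (3) and the pseudogene Rpl35a-ps6 at 2.73 (8) were listed at 0 in NC and LPS samples. Rps6-ps4, a pseudogene of a ribosomal protein, was at -1.80 (5), with 432 and 349 TPM in C498, 185 and 184 in C498+LPS, 363 and 325 in NC and 619 and 529 in LPS samples. Numbers in brackets are the libraries, of 8, whose removal ended the call, and the sign was kept for all 57 genes each time.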

How the results depend on the processing

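With adjusted p alone, 550 genes were upregulated and 1430 downregulated in C498+LPS vs C498, and 1200 and 2409 in LPS vs NC. Centring on the median gene left 196 downregulated genes under C498 and 530 in vehicle, and quantile normalization 510 in vehicle. Under C498 this changed the share of upregulated calls from 44.6% to 68.9% with centring and 61.0% with quantile normalization. The more negative and more positive interactions numbered 15 and 3 with no filter and 9 and 3 with no variance trend. Leaving out each library gave between 181 and 319 upregulated and between 183 and 401 downregulated genes under C498, between 514 and 931 and between 628 and 1078 in vehicle, and between 9 and 64 more negative and between 0 and 28 more positive interactions. With a replicate block there were 322 upregulated and 414 downregulated genes, of which 306 and 379 were called without the block, and 72 more negative and 12 more positive interactions, which held all 48 and 8 of the 9. The numbers were not shown to mark pairs. Genes without a call changed sign, Stat3 to 0.18 with centring, 0.018 with quantile normalization, 0.0098 without C498 replicate 2 and 0.029 without C498+LPS replicate 2 (range without single libraries -0.105 to 0.029), and, with centring, Irf7 to 0.042, Gapdh to 0.10 and Gdf15 to 0.0094. Over all alternatives named genes lost a call 190 times and gained one once, and 2047 values kept direction and call. The causes of these changes were not tested. Depth is not recorded in TPM, so its limit on low genes is unknown.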
